A study of Mus musculus with 2 samples.

Results

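The genes described here are those of glucose breakdown in regulatory T cells: 36 listed genes for glucose and lactate transporters, the enzymes of glycolysis and of the pentose phosphate pathway, the gate into the mitochondrion at pyruvate dehydrogenase, and the hypoxia factor gene Hif1a. They were taken by symbol, from a list drawn up with earlier results of these data known. Of the 36, 30 had at least 1 probe that the platform annotation pairs with their symbol, 44 probes in all. Across the whole array 16593 genes had a named probe. Gpi1, Eno1, Ldhb, G6pdx, Pgd and Rpe had no listed probe and were not analysed here.

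RNA came from CD4+ CD25+ GITR+ cells, the surface phenotype used to sort regulatory T cells, which restrain immune responses. The sorted cells came from the spleens of Bach2 KO mice, labelled male and 7 weeks old, or of WT mice, labelled male and 6 weeks old, both on a C57BL/6 background. Bach2 is a bZIP factor of lymphocytes, known mostly for silencing genes, and the comparison asks how its loss changes transcript levels in these cells. Each genotype had 1 Illumina bead array, on which a probe gives 1 brightness value. There is no replicate error, so each difference describes these 2 samples and carries no p-value. Neither the number of animals per sample nor how the Bach2 allele was made is stated in the labels.

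Glycolysis splits glucose into pyruvate in the cytoplasm and yields ATP and building blocks. The pentose phosphate pathway branches off after the first step and makes NADPH and ribose for nucleotides. T cells that become activated and divide are known to take up more glucose and to turn much of it into lactate, whereas resting T cells rely more on oxidation in mitochondria, for which pyruvate must pass through pyruvate dehydrogenase.

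Of 25697 probes, 10373 were detected on the Bach2 KO array and 10431 on the WT array, at a detection p-value under 0.01. They gave 7611 genes detected on at least 1 array, each represented by its brightest detected probe. The log2 differences below are Bach2 KO minus WT after background correction and quantile normalization, and their median over the 7611 genes was -0.03. Technical scatter could be gauged only between probes of the same gene, whose differences had a pooled SD of 0.23 on the log2 scale over 1734 genes; error common to a gene's probes is not in it. All 9 markers of the sorted population were detected, and none was 1.5-fold apart between the arrays. Sex-linked transcripts set the Bach2 KO array apart from its label: Xist, transcribed from the inactive X of females, had a deposited intensity of 393 in Bach2 KO and 12.3, not detected, in WT. The Y-linked Kdm5d was at 120.0 in Bach2 KO and 827 in WT, and Eif2s3y at 983 in Bach2 KO and 3451 in WT, both dimmer in Bach2 KO though still detected, while Uty was at 38.9, not detected, in Bach2 KO and 98.9 in WT. Neutrophil markers were dimmer in Bach2 KO, with 6 of 8 detected at least 1.5-fold lower (against 6.77% of all compared genes), summing to 1015 intensity units in Bach2 KO and 3407 in WT, while Ngp, Mmp8, Elane and Cxcr2 were not detected on either array. Mast cell and basophil markers were brighter, with 6 of 7 detected at least 1.5-fold higher (against 8.15% of all compared genes), and sums of 1533 in Bach2 KO and 511 in WT, with Ms4a2 not detected. Of 4 detected genes in the list of red cell and platelet markers, all of them red cell genes, 3 were at least 1.5-fold lower (against 6.77%). Their sums were 229 in Bach2 KO and 631 in WT, and the platelet genes Pf4, Ppbp and Itga2b were not detected. Of 6 detected NK cell markers 4 were at least 1.5-fold higher (against 8.15%) and 1 lower (against 6.77%), with sums of 4208 in Bach2 KO and 3134 in WT. Of 4 detected B cell markers 2 were higher and 1 lower by that fold, against the same shares, with sums of 1859 in Bach2 KO and 1342 in WT. Ncr1, Gzma and Gzmb of the NK cell list and Ms4a1, Pax5 and Blk of the B cell list were not detected. Of 3 detected plasma cell markers 1 was at least 1.5-fold higher (against 8.15%), with sums of 6312 in Bach2 KO and 4864 in WT. The 1 detected CD8 T cell marker, Cd8b1, was within 1.5-fold, at 1185 in Bach2 KO and 985 in WT, and Cd8a was not detected. The part of sex and of other cell types in the differences below was not tested.

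Among the glucose-metabolism genes, 26 were detected, each on both arrays, and most were close to equal in the 2 samples. Hk2, Pgam1 and Tpi1 were at least 1.5-fold higher in Bach2 KO, Eno3 and Pdk1 were more than 2-fold lower, and the other 21 were within 1.5-fold. The share of all compared genes at least 1.5-fold higher was 8.15%, and the share at least 1.5-fold lower was 6.77%. Under the processing used here, 3 and 2 of 26 (11.5% and 7.69%) are near these shares. On the deposited series matrix values the same 3 and 2 of 26 stood against 4.90% and 2.81% of all compared genes. At 2-fold, 1 of 26 members was higher and 2 of 26 were lower, against 3.27% and 1.55% of all compared genes. The median difference of the 26 was 0.13, and 16 of them were above 0, which is 61.5% against 46.7% of all compared genes. Differences of 12 of the 26 were smaller than the probe-to-probe SD. Tpi1, at 0.76, was the closest to the 1.5-fold line among those past it, and Eno2, at -0.47, the closest of those within. Slc16a1, Slc16a3, Pfkfb3 and Pgk1 had probes that were not detected on either array, which leaves no fold to report.

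**Figure D1:**
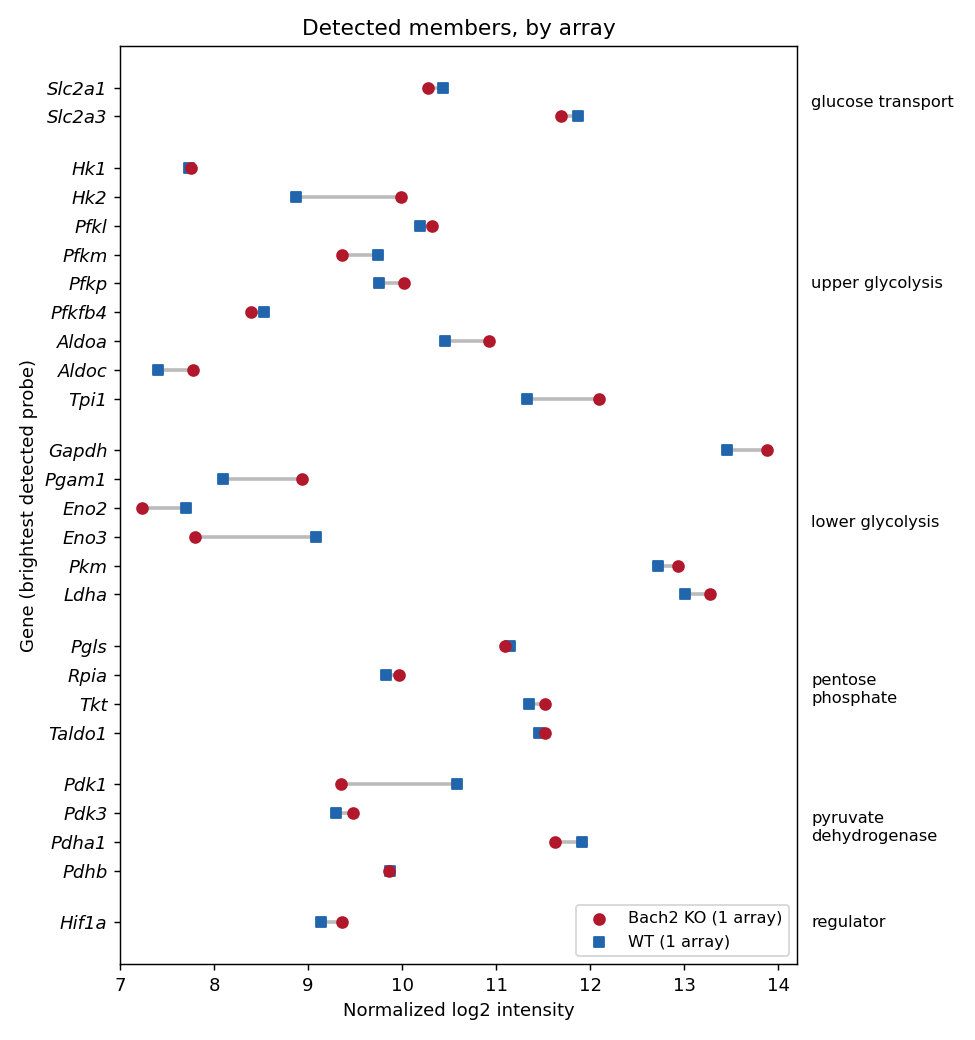
Normalized log2 intensity (horizontal axis) of the 26 detected members at their brightest detected probe, 1 row per gene grouped by role; circles are the Bach2 KO array, squares the WT array, and lines join the 2 values of a gene. The gaps are widest for Eno3, Pdk1, Hk2, Pgam1 and Tpi1, and levels of different genes are not comparable since each probe has its own brightness.

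**Figure D2:**
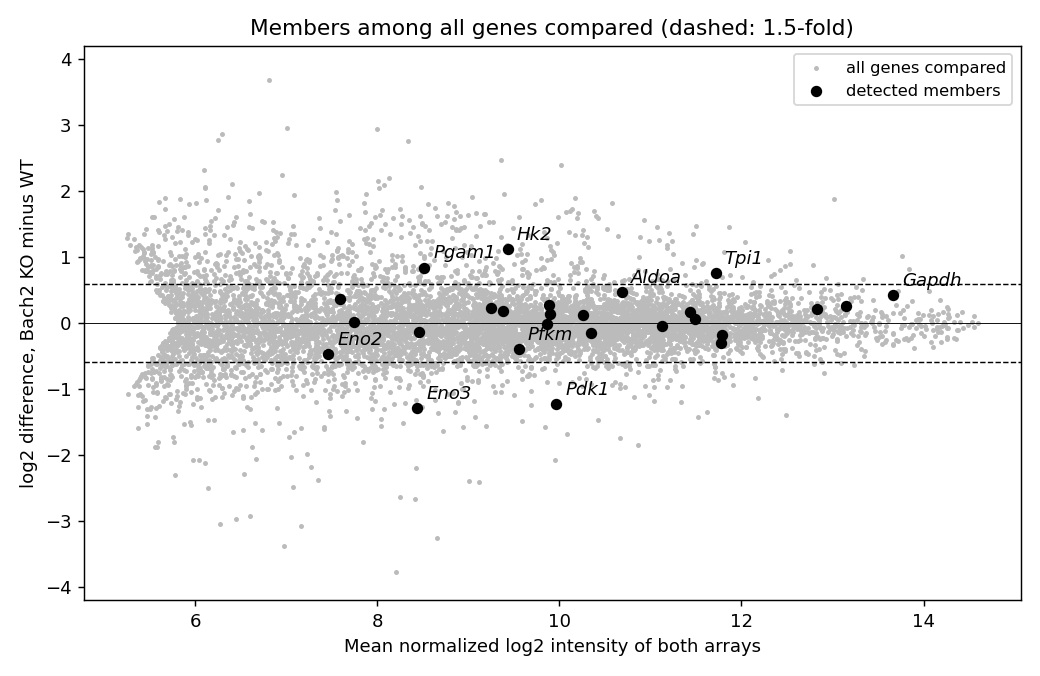
Difference in log2 intensity, Bach2 KO minus WT (vertical axis), against mean log2 intensity of both arrays (horizontal axis) for the 7611 genes compared (grey) and the 26 detected members (black, 9 of them named); genes detected on 1 array are drawn at their normalized value. Dashed lines mark 1.5-fold, with 3 members above the upper line and 2 below the lower one.

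The promoters of the 5 genes past 1.5-fold are shown because they are the members whose transcripts differed most. The windows run from 250 bases before to 50 after the start of the gene in RefSeq, build GRCm38.p6, each printed 5′ to 3′ along the gene. They were searched on both strands for ACGTG, the core of the hypoxia response element bound by HIF-1, for the E-box CACGTG bound by Myc and related factors, which contains ACGTG, and for TGANTCA, the type of site bound by AP-1 and related bZIP factors. Capitals mark a match, read as CACGT where it lies on the other strand. Hk2 lies at chr6:82774405-82774704 on the minus strand, Pgam1 at chr19:41911621-41911920 on the plus strand and Tpi1 at chr6:124814109-124814408 on the minus strand. Eno3 lies at chr11:70656926-70657225 on the plus strand, and the more upstream of the 2 windows of Pdk1 at chr2:71872974-71873273 on the plus strand.
Hk2: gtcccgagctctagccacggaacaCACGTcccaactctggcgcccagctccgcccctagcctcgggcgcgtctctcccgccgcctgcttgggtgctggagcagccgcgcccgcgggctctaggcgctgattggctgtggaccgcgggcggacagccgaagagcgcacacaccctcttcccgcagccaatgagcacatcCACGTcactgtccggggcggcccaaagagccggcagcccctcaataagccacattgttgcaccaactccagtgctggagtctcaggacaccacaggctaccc
Pgam1: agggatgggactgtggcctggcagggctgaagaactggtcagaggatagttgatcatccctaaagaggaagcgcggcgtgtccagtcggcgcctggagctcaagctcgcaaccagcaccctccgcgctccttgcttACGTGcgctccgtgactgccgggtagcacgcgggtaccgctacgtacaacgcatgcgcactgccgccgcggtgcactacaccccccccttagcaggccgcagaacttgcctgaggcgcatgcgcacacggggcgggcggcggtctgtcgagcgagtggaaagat
Tpi1: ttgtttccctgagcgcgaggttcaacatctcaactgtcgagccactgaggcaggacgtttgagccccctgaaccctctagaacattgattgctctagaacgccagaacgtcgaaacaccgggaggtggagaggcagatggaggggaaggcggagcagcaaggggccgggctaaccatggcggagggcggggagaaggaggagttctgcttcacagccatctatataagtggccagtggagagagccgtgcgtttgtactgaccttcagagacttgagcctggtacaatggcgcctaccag
Eno3: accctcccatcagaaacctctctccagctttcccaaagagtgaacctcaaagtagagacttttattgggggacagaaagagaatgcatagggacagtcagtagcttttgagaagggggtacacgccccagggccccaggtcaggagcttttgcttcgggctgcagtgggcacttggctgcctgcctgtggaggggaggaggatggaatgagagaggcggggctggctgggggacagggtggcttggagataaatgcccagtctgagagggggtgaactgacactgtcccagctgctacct
Pdk1: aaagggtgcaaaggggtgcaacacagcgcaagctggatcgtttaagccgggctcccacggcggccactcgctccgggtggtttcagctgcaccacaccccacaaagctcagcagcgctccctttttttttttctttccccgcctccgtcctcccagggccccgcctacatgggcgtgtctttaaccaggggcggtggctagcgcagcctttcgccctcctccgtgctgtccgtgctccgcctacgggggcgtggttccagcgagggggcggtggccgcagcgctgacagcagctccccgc

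The Hk2 window held 2 matches to ACGTG, starting 226 and 52 bases before the gene start, and the Pgam1 window held 1, starting 114 bases before it. The windows of Tpi1 and Eno3 and both windows of Pdk1 held none of the motifs. Of the 26 detected members, 25 had a window in the RefSeq table, and 13 of these (52.0%) held ACGTG in at least 1 window, against 31.0% of 6291 compared genes with a window and 21.8% of all 27025 genes in the table. CACGTG was present for 3 members (Hif1a, Ldha and Pfkm, of 25), against 12.2% of compared genes and 8.09% of all genes. TGANTCA was present for 1 member, Aldoa, of 25, against 5.88% of compared genes and 8.97% of all genes. A match is a string of letters in the window and shows no binding. Members with and without ACGTG were found on both sides of 0, and a part of the motif in the differences was not tested. Matches were counted on each strand, so that 1 CACGTG counts as 2 matches to ACGTG. The windows of Ldha held 5 matches, with 2 CACGTG among them, and its transcript differed by 0.27. Those of Pfkm held 4, with 1 CACGTG among them, and its transcript differed by -0.39.

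The detected glucose transporters were slightly dimmer without Bach2. Slc2a1, the basal transporter GLUT1, had a deposited intensity of 1248 in Bach2 KO and 1342 in WT, a difference of -0.16. Slc2a3, the high-affinity transporter GLUT3 of lymphocytes and neurons, was at 3365 in Bach2 KO and 3672 in WT, a difference of -0.18. Both differences are smaller than the SD between probes of a gene. The lactate exporters Slc16a1 and Slc16a3, which encode MCT1 and MCT4, were at background on both arrays, with detection p-values between 0.0602 and 0.872 over their 4 probes.

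In upper glycolysis, which spends ATP to make triose phosphates, the largest difference was at the entry step. Hk2, the inducible hexokinase that traps glucose as glucose 6-phosphate, had a deposited intensity of 1025 in Bach2 KO and 447 in WT. After normalization it was 2.17-fold higher in Bach2 KO (log2 difference 1.12), and 3.14% of all compared genes were at least as far above WT. Hk1, the constitutive hexokinase, was at 205 in Bach2 KO and 194 in WT (0.02), so the 2 hexokinase genes did not differ alike on this pair of arrays.

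The phosphofructokinase genes, whose products catalyse the committed step, went different ways by small amounts. Pfkp, the platelet-type subunit, was at 1044.9 in Bach2 KO and 829.9 in WT (0.27), and its second detected probe differed by 0.19. Pfkm, the muscle-type subunit, was at 652 in Bach2 KO and 828 in WT (-0.39), and its second probe detected on both arrays differed by -0.33. Each of these genes had 1 more probe, not detected on either array, at -0.01 for Pfkp and 0.43 for Pfkm. Pfkl, the liver-type subunit, differed by 0.12 at its brightest probe and by -0.34 at a dim probe that was detected in WT only. Pfkfb4, which sets the level of the activator fructose 2,6-bisphosphate, was at 326 in Bach2 KO and 348 in WT (-0.14), and its relative Pfkfb3 was not detected, with detection p-values of 0.0489 in Bach2 KO and 0.169 in WT.

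Of the next steps, Tpi1 alone passed 1.5-fold. Aldoa, the main aldolase, which cleaves fructose 1,6-bisphosphate, was at 1949 in Bach2 KO and 1367 in WT (0.46, or 1.38-fold). Aldoc, the brain-type aldolase, was at 207 in Bach2 KO and 152 in WT (0.37). Tpi1, which interconverts the triose phosphates, was at 4426 in Bach2 KO and 2520.4 in WT at its brightest probe (0.76, or 1.70-fold). Its second probe gave 1779 in Bach2 KO and 1152 in WT (0.56), and its remaining probe was detected in Bach2 KO only. The 0.20 between the first probes of Tpi1 was the largest gap within any of the 5 members with several probes detected on both arrays. Of the 9 detected genes of upper glycolysis, 7 were above 0 (77.8%, against 46.7% of all compared genes), with a median of 0.27. At least 1.5-fold higher were 2 of the 9 (22.2%, against 8.15%).

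Lower glycolysis yields ATP and pyruvate. Of its 6 detected genes, 1, Pgam1, was at least 1.5-fold higher in Bach2 KO (16.7%, against 8.15% of all compared genes). Another, Eno3, was at least 1.5-fold lower (16.7%, against 6.77%). Gapdh, which oxidises glyceraldehyde 3-phosphate, was at 15472 in Bach2 KO and 10995 in WT (0.43, or 1.34-fold), with 0.36 at its second probe. Pgam1, the phosphoglycerate mutase of most tissues, was at 479.7 in Bach2 KO and 253 in WT (0.84, or 1.79-fold), and 5.70% of compared genes were as far above WT. The enzymes that finish the route differed less. Pkm, pyruvate kinase, was at 8191 in Bach2 KO and 6476 in WT (0.22), and Ldha, which reduces pyruvate to lactate, at 10295 in Bach2 KO and 7919.9 in WT (0.27). Which splice forms of Pkm its 1 probe reads was not tested.

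Eno3, the muscle-type enolase, had the largest difference of all detected members. Its deposited intensity was 209.6 in Bach2 KO and 525 in WT, 2.45-fold lower in Bach2 KO (-1.29), and 1.06% of compared genes were at least as far below WT. Eno2, the neuron-type enolase, was at 135 in Bach2 KO and 188 in WT (-0.47, or 1.38-fold lower). The enolase of most tissues, encoded by Eno1, was not analysed here, so the summed enolase transcript is unknown. Of the 6 detected genes of lower glycolysis, 4 were above 0 (66.7%, against 46.7% of all compared genes), with a median of 0.24. Taking both stages together, 15 enzymes of glycolysis had a median difference of 0.27, with 11 above 0 (73.3%, against 46.7% of all compared genes), 3 at least 1.5-fold higher (against 8.15%) and 1 at least 1.5-fold lower (6.67%, against 6.77%). Several of these genes, such as Gapdh, Aldoa and Ldha, have processed pseudogene copies in the mouse genome, and whether the probes also bind their transcripts was not tested.

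The detected pentose phosphate enzymes differed little between the samples. Tkt, transketolase, was at 2986 in Bach2 KO and 2552 in WT (0.17), and Taldo1, transaldolase, at 2962 in Bach2 KO and 2742 in WT (0.06). Rpia, which isomerises ribose 5-phosphate, was at 1007 in Bach2 KO and 879 in WT (0.14). Pgls, the lactonase of the oxidative arm, was at 2203 in Bach2 KO and 2229 in WT (-0.05). All 4 differences were smaller than the SD between probes, and their median was 0.10. The NADPH-producing dehydrogenases of the oxidative arm, encoded by G6pdx and Pgd, were among the genes with no listed probe.

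At the entry to the mitochondrion, Pdk1 stood out. It encodes a kinase that phosphorylates and switches off pyruvate dehydrogenase. Its deposited intensity was 649 in Bach2 KO and 1487 in WT, 2.34-fold lower in Bach2 KO (-1.23), and 1.21% of compared genes were at least as far below WT. Pdk3, another kinase of the same family, was at 711 in Bach2 KO and 602 in WT (0.19). The subunits of the enzyme were within 1.5-fold: Pdha1, the catalytic alpha subunit and the target of these kinases, was at 3208 in Bach2 KO and 3792 in WT (-0.29), and Pdhb, the beta subunit, at 929 in Bach2 KO and 908 in WT (-0.01), with 0.01 at its second probe. Pdk3 and Pdha1 are X-linked, and the arrays also differed in Xist. The part of sex in their values was not tested, and the Pdk3 difference was smaller than the SD between probes.

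Hif1a, which encodes the oxygen-regulated subunit of HIF-1, was at 653 in Bach2 KO and 542 in WT (0.23). HIF-1 activity is controlled mainly at the protein level, so the transcript alone does not report it. In a list of 22 further genes that regulate HIF-1 or are known targets, 14 were detected, 5 were at least 1.5-fold lower (35.7%, against 6.77% of all compared genes) and 1 was at least 1.5-fold higher (7.14%, against 8.15%), with a median of -0.41, against -0.03 for all compared genes. The lower genes were Ddit4 (-1.17), an inhibitor of mTORC1 induced by stress, Mxi1 (-0.97), an antagonist of Myc, P4ha1 (-0.71), a collagen prolyl hydroxylase, and the HIF prolyl hydroxylases Egln1 (-0.70, second probe -0.17) and Egln2 (-0.69). The third hydroxylase gene went the other way: Egln3 was at 725 in Bach2 KO and 198 in WT, 3.34-fold higher (1.74). Car9, a carbonic anhydrase and HIF-1 target, was detected in Bach2 KO only, at least 1.25-fold higher (1.18 at its normalized value). With no filter on dim probes the list held 20 genes and its median was -0.05. With an offset of 50, 3 of 14 genes were at least 1.5-fold lower, against 4.51% of all compared genes. On the series matrix values the count was 2 of 14, against 2.81% of all compared genes. Egln1 was past 1.5-fold in 7, Egln2 in 8 and P4ha1 in 9 of 10 alternatives, and Ddit4, Mxi1 and Egln3 in all 10. Pdk1 and Hk2, both textbook HIF-1 targets, were on opposite sides of WT, as were Ddit4 and Egln3. The part of HIF-1 in any of these differences was not tested.

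**Figure D3:**
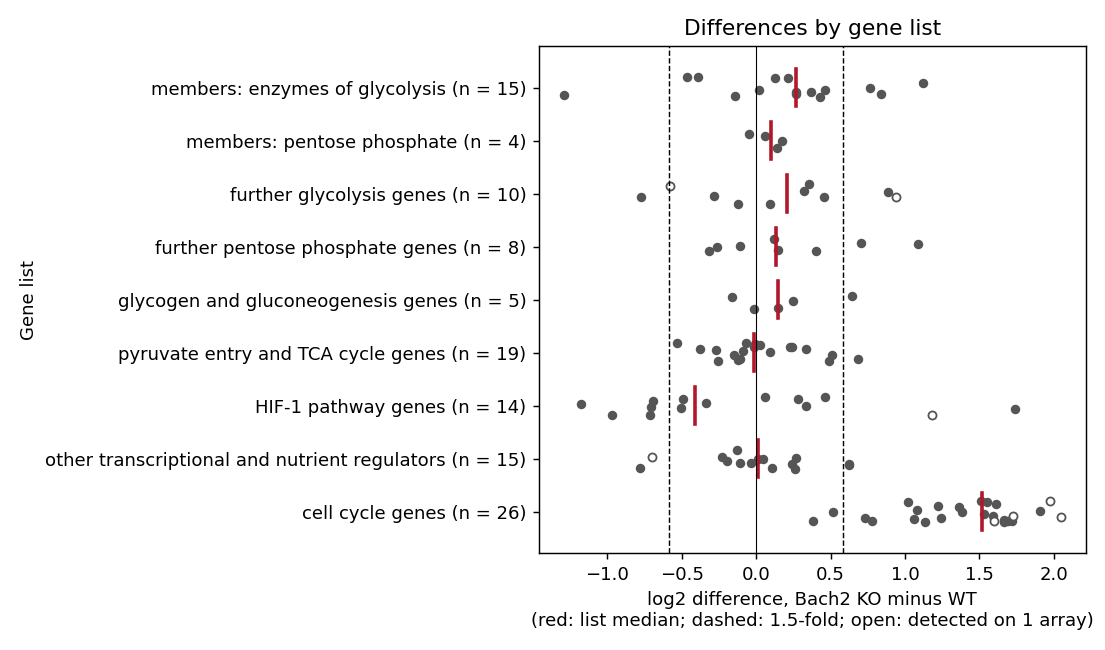
Difference in log2 intensity, Bach2 KO minus WT (horizontal axis), of each detected gene in 9 groups (rows, with the number detected); red bars are group medians, dashed lines 1.5-fold, and open circles genes detected on 1 array, drawn at their normalized value. The medians of the glycolysis enzymes and pentose phosphate members are 0.27 and 0.10, that of the HIF-1 pathway genes is -0.41 and that of the cell cycle genes 1.52.

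Genes next to the pathway differed in both directions. Of 26 further glycolysis genes, 10 were detected, with 2 at least 1.5-fold higher (against 8.15% of all compared genes), 1 at least 1.5-fold lower (against 6.77%) and a median of 0.21. Slc2a6, the transporter GLUT6, differed by 0.89, and Adpgk, an ADP-dependent glucokinase, by -0.77. Hk3, the hexokinase of myeloid cells, was detected in Bach2 KO only and was at least 1.75-fold higher, past 1.5-fold in 7 of 9 alternatives that kept it. Beside it, the myeloid marker list had 6 detected genes, with sums of 1528 in Bach2 KO and 1032 in WT. Of these 6, 3 were at least 1.5-fold higher in Bach2 KO (against 8.15% of all compared genes): Tyrobp, Fcer1g and Vcam1. Lyz2 (0.04), Adgre1 (-0.14) and Siglech (-0.30) were within 1.5-fold. Itgam, Cd14, Clec9a and Xcr1 were not detected, and the part of myeloid cells in the Hk3 value was not tested.

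Of 10 further genes of pentose phosphate and ribose metabolism, 8 were detected and 2 were at least 1.5-fold higher (25.0%, against 8.15% of all compared genes), with none lower by that fold (against 6.77%) and a median of 0.13. Tktl1, a transketolase-like gene on the X chromosome, was at 117 in Bach2 KO and 46.0 in WT (1.09), and Dera, which splits deoxyribose 5-phosphate, differed by 0.71. On the series matrix values neither reached 1.5-fold. Rbks, ribokinase, differed by 0.40, and Prps1 and Prps2, which turn ribose 5-phosphate into the nucleotide precursor PRPP and are both X-linked, by 0.12 and -0.31.

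Of 17 genes of glycogen and gluconeogenesis, 5 were detected and 1 was at least 1.5-fold higher (against 8.15%). That gene, G6pc3, the glucose 6-phosphatase of most tissues, differed by 0.64 (past 1.5-fold in 8 of 10 alternatives). Ugp2 differed by 0.25 and Pygl by -0.16 (second probe -0.52). Among 28 genes of pyruvate entry and the TCA cycle, 19 were detected, with 1 at least 1.5-fold higher (5.26%, against 8.15%), none lower by that fold (against 6.77%) and a median of -0.01. Fh1, fumarase, was the 1 that was higher (0.69), Mdh1, the cytosolic malate dehydrogenase, differed by -0.53 (second probe 0.16), and Idh3a, an isocitrate dehydrogenase subunit, by 0.51.

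Of 22 other regulators of metabolism, 15 were detected, with 2 at least 1.5-fold higher (13.3%, against 8.15%) and 1 at least 1.5-fold lower (6.67%, against 6.77%). Slc7a5, the large neutral amino acid transporter that feeds mTORC1, differed by 0.62, and Irf4, a T cell activation factor, by 0.63. Txnip, which restrains glucose uptake, differed by -0.78. Myc, a general activator of glycolytic genes, was near the detection limit, at 35.7 in Bach2 KO, where it was not detected, and 68.4 in WT.

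Cell cycle transcripts were mostly higher in Bach2 KO. Of 26 detected cell cycle genes 24 were at least 1.5-fold higher (92.3%, against 8.15% of all compared genes) and none was lower by that fold (against 6.77%), with a median of 1.52 (1.35 with genes detected on 1 array at their lower bound) and sums of 46649 in Bach2 KO and 22506 in WT. Their part in the glycolysis differences was not tested. In a sorted bulk sample, more cells with a transcript and more of it per cell cannot be told apart.

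The direction of most members did not rest on the processing. Over 10 alternative settings, Hk2 stayed between 1.01 and 1.16, Pgam1 between 0.68 and 0.89, Eno3 between -1.35 and -1.02 and Pdk1 between -1.24 and -1.09. Settings that changed only the detection filter left these values as they were. Hk2, Pgam1, Eno3 and Pdk1 had 1 probe each, so a mean over probes could not move them. Tpi1 ranged from 0.58 to 0.78 and came just short of 1.5-fold with the mean of its detected probes.

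**Figure D4:**
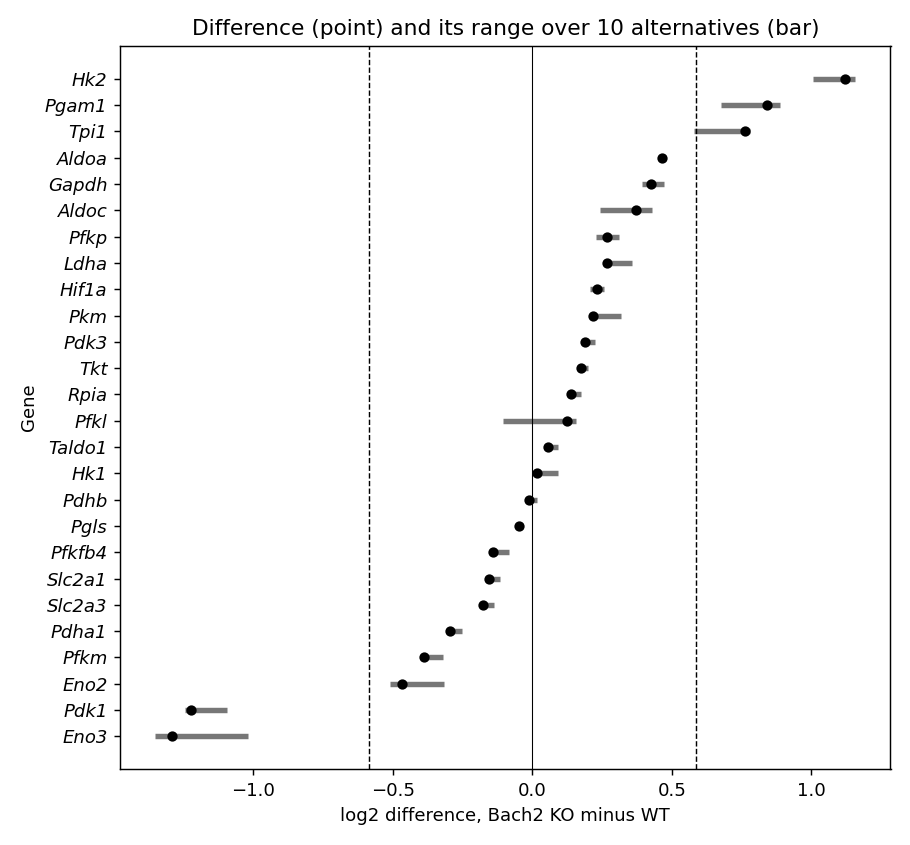
Difference in log2 intensity, Bach2 KO minus WT (horizontal axis), of the 26 detected members (rows): points are the reported values and bars their range over 10 alternative settings, not replicate error. Bars of Hk2, Pgam1, Eno3 and Pdk1 lie outside the dashed 1.5-fold lines, that of Tpi1 reaches the line, and those of Pfkl and Pdhb cross 0.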

How the data were processed

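The authors deposited background-subtracted intensity values for each probe on each array, called non-normalized in the file header, with detection p-values. The subtraction is inferred from values below 0, which made up 29.5% on the Bach2 KO array and 30.4% on the WT array. The scanner software is not named in the labels or file headers. The deposited series matrix is, per array, a straight line of the same intensities (slope 0.779 for Bach2 KO and 0.782 for WT, column medians 95.6 and 99.7), so it is linear, uncentred and not independent.

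Background was corrected by normexp from the detection p-values with an offset of 16, followed by quantile normalization and log2 (neqc, limma 3.58.1, R 4.3.3). The steps were also run on simulated data, with no requirement set there for recovering 1.5-fold differences. Quantile normalization cannot show a shift shared by all genes. A gene detected on 1 array was counted by a lower bound, against the higher of its own value and the dimmest detected probe of the other array. Of 25697 probes, 23978 had 1 symbol in the platform annotation, none had several and 1719 were unnamed here. No listed probe was paired with Bach2, so the deletion was not checked. The members and lists, and the fold thresholds of 1.5 and 2, were chosen with earlier results of these data known. All members were described, and from the other metabolic lists the genes past 1.5-fold and the 3 largest differences; the cell cycle and marker lists are given by counts. Folds carry no test, as there was 1 array per genotype.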

Additional observations from a re-analysis of the deposited data

How the results depend on the processing

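The alternatives were the background as deposited, median scaling, cyclic loess, offsets of 1 and 50, the series matrix values, detection on both arrays, a detection p-value under 0.05, no filter on dim probes and the mean of a gene's detected probes. The 3 members at least 1.5-fold higher stayed 3 in all but the last, where Tpi1 dropped out and 2 were left. The 2 lower ones stayed 2 in all 10. The shares of all compared genes moved more. Those at least 1.5-fold higher made up 9.32% with an offset of 1 and 4.90% on the series matrix values. Those at least 1.5-fold lower made up 8.20% and 2.81% in the same settings. The members' median ranged from 0.10 to 0.17. Of the 26 detected members, 24 kept their sign in every alternative, and Pdhb and Pfkl did not. Only 2 of 260 single-gene values moved by more than the probe SD: Eno3 to -1.02 on the series matrix values and Pfkl to -0.11 with the mean of its probes. Not all 260 could move. Settings that changed only the detection filter left the values of all 26 members as they were. The mean of detected probes cannot move a gene with 1 detected probe. Over all genes, 620 were at least 1.5-fold higher and 515 lower, against 373 and 214 on the series matrix values, which leave a constant in, and 871 and 798 of 16593 with no filter. No paired analysis was possible because each genotype had 1 array, and for the same reason no replicate could be left out. The number of arrays limits the precision of every difference, and the offset pulls those of dim probes towards 0.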

Other observations

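Although no listed probe was paired with Eno1, 1 probe was paired with Eno1b, a near-identical copy of it. Its deposited intensity was 294 in Bach2 KO and 191 in WT, a log2 difference of 0.54, opposite in sign to Eno2 and Eno3. The probe was looked up after the enolase values were seen, and whether it reads the copy, Eno1 or both was not tested.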
